A study of Mus musculus with 24 samples.

Results

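The 10 genes described here serve the maintenance and transcription of mitochondrial DNA (mtDNA): Polrmt, Tfam, Tfb2m, Tefm, Polg, Polg2, Ssbp1, Lonp1, Nrf1 and Ppargc1a. They were chosen by function and found by name among the 16572 gene names of the RNA-seq table, where each of the 10 has a row of its own. The RNA came from class IV oocytes (the class of largest size) of a follicle-free culture started from ovaries of C57BL/6 Barb mice (the strain as the labels give it; the methods name a cross with SV129) at 7 days of age. The oocytes were grown either for 9 days in 5% O2 (IV 5% O2) or for 14 days in 20% O2 (IV 20% O2), with 2 libraries of total RNA per condition, and neither group received the drugs used elsewhere in the study. The labels give both groups the same size, whereas by the study's methods the IV 20% O2 oocytes were collected at a somewhat smaller diameter. Oxygen, culture time and, by the methods, size differ together between the groups, so their parts in any difference cannot be told apart. In addition, the medium was renewed more often in 5% O2. The deposited table gives 1 pooled value per condition, and therefore no SD, p-value or replicate check exists for any difference given here.

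The mitochondrial genome is transcribed by its own single-subunit polymerase, which is encoded in the nucleus by Polrmt. Tfam bends and packages mtDNA and is needed at the promoters, Tfb2m opens the promoter DNA, and Tefm keeps the polymerase elongating. Replication depends on the polymerase gamma genes Polg (catalytic subunit) and Polg2 (accessory subunit) and on Ssbp1, the single-stranded DNA-binding protein. Lonp1 is a protease of the matrix that degrades, among others, unbound Tfam. Nrf1 is a nuclear transcription factor with many mitochondrial targets, and Ppargc1a is a coactivator of mitochondrial biogenesis. A growing oocyte accumulates a very large number of mitochondria, each carrying few copies of mtDNA, and passes them on to the embryo.

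The columns hold RPM, that is reads scaled to the size of the library pool, on a log2 scale. Judged from the step between low values, the pool of IV 5% O2 held 132185258 reads and that of IV 20% O2 held 40875359, so the IV 5% O2 values carry less counting error. Differences are log2(RPM + 1) values, IV 5% O2 minus IV 20% O2, which understates low genes, and a gene is counted as at least 2-fold apart when this difference is at least 1 in size. Fold values given for single genes and sums are plain RPM ratios, those of single genes with an exact 95% Clopper-Pearson interval on the reads. These intervals cover counting error only and compare these libraries, not the conditions. A gene counted as tested when its mean reached 1 RPM, and the 14704 such genes had a median difference of 0.26. Of the genes at least 2-fold apart, 67.0% were higher in IV 5% O2, but only 45.6% after scaling by the median ratio and 48.6% after quantile normalization, so the differences below are also read against the median gene. In the oocyte marker list, all 15 genes had reads in both columns, with sums of 11220 RPM at 5% O2 and 14643 RPM at 20% O2. Of these 15, 6 were higher in IV 5% O2, beside 62.6% of all genes tested. At least 2-fold lower were 4 (Kit, Sohlh1, Zp2 and Zp3), beside 9.22% of all genes tested, and Zp2 alone had 1537 and 3807 RPM. Theca and stroma markers were higher in IV 5% O2 for 10 of the 10 listed (14 on the list), against 62.6% of all genes tested, with sums of 45.3 and 5.48 RPM and Col1a2, Vim and Dcn at 0 reads in IV 20% O2. Granulosa markers (6 of 10 listed, without Foxl2 and Amh) summed to 99.6 and 50.6 RPM, of which Esr2 gave 68.4 and 26.4 RPM. Endothelial markers (4 of 5 listed) summed to 65.0 and 37.9 RPM, macrophage markers (4 of 7) to 24.9 and 22.6 RPM, and the erythroid list was represented by Alas2 alone at 1.32 and 1.57 RPM. The part of RNA from other cells in the results below was not tested, and fewer cells of a type and less RNA per cell cannot be told apart in such bulk samples.

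To show the start regions of these genes, RefSeq promoter windows (GRCm38.p6) were searched for the core letters of ETS factors and of NRF1, known regulators of nuclear genes with mitochondrial roles. All 10 genes matched a window, from 250 bases before to 50 bases after the RefSeq start. The ETS core CCGGAAG or its reverse complement CTTCCGG, the kind of site that GABP binds, was present in 6 of the 10 (Polrmt, Tfam, Tefm, Polg, Polg2 and Ssbp1), against 8.86% of all 32851 promoter windows and 19.2% of the 10831 tested genes with a window. The NRF1 core, searched on both strands, was present in 1 of the 10, Polrmt, against 4.60% of all windows and 11.1% of the tested genes with a window. Its 2 matches there, both of the reverse complement, overlap each other in the second run of capitals of the Polrmt line. Of these, 1 lies across the start and 1 begins at it. The stretches shown run from 60 bases before to 20 bases from the start, 5′ to 3′ in the direction of transcription, with matches capitalized. First come 4 promoters with an ETS core, then those of the genes with the highest and the lowest difference, which have no exact match. They lie at chr10:71238025-71238104, minus strand (Tfam), chr10:79746562-79746641, minus strand (Polrmt), chr7:79466254-79466333, minus strand (Polg), chr6:40471408-40471487, plus strand (Ssbp1), chr17:56626884-56626963, minus strand (Lonp1) and chr1:179546257-179546336, minus strand (Tfb2m).
Tfam: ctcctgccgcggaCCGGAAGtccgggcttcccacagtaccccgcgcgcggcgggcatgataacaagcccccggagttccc
Polrmt: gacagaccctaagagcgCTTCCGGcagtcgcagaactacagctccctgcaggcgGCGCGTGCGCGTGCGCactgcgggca
Polg: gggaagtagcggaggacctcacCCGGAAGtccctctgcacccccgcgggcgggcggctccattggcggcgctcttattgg
Ssbp1: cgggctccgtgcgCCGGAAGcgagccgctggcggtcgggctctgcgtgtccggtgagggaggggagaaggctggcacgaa
Lonp1: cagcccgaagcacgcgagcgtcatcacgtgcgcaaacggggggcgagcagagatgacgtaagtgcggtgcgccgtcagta
Tfb2m: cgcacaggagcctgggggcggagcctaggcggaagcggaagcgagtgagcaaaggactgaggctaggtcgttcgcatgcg
The ETS core began 47 bases before the start in both Tfam and Ssbp1, 43 before it in Polrmt and 38 before it in Polg. In Polg2 it began 29 bases and in Tefm 9 bases before the start. These are exact matches of letters and not shown sites, and a window without a match may still hold a variant of the core. The 6 genes with the core had differences from -0.71 (Ssbp1) to 0.41 (Polg), and the 4 without it from -1.02 (Tfb2m) to 0.81 (Lonp1), so the ranges overlapped.

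The set was expressed at very unequal levels. Per kb of annotated exon, which allows genes to be compared within a column, Lonp1 was the most abundant of the 10 in both conditions, with 42.0 RPM per kb in IV 5% O2 and 23.9 in IV 20% O2. Tfam (14.4 and 12.8 RPM per kb), Polrmt (12.6 and 12.3) and Nrf1 (14.2 and 9.42) followed. Polg reached 5.42 and 4.04 RPM per kb and Tefm 4.35 and 5.20. Tfb2m (1.83 and 4.08), Ssbp1 (1.59 and 2.68) and Polg2 (1.21 and 1.22) were lower, and Ppargc1a was lowest, with 0.102 and 0.152 RPM per kb. Of neighbours in this order, only Tfam and Nrf1 in IV 5% O2, and Tfam with Polrmt and Tfb2m with Polg in IV 20% O2, had overlapping counting intervals. The order depends on the length used: with the principal transcript in place of all exons, Nrf1 stood above Lonp1 in both columns. Nrf1 then had 77.9 RPM per kb against 62.2 for Lonp1 in IV 5% O2, and 51.6 against 35.4 in IV 20% O2. The principal transcript of Nrf1 covers 1879 of its 10282 exon bases.

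**Figure D1:**
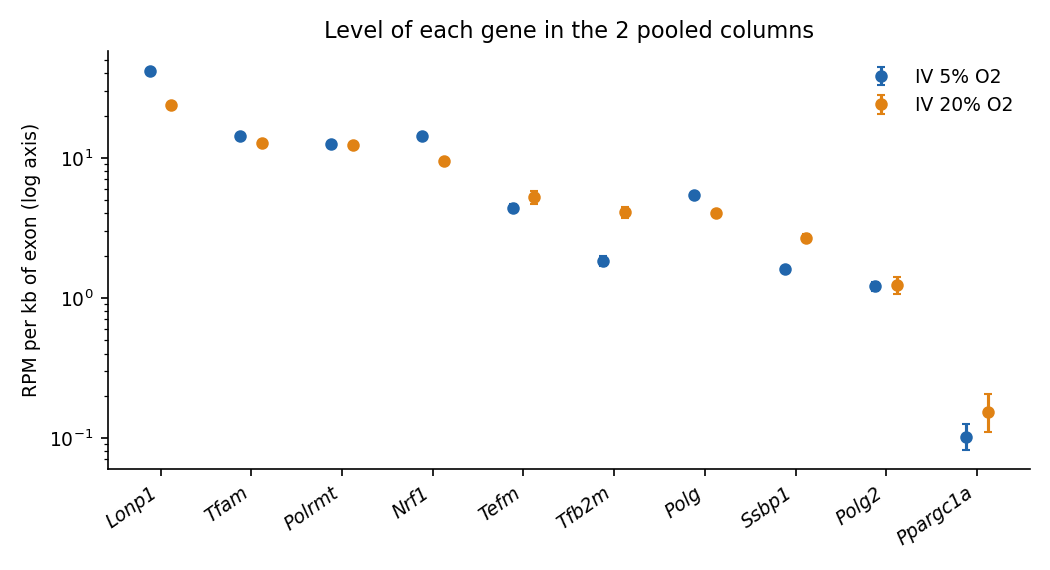
Level of the 10 genes in RPM per kb of exon (log axis), with IV 5% O2 in blue and IV 20% O2 in orange and bars for the 95% Poisson interval of the reads. Lonp1 was highest in both columns (42.0 and 23.9) and Ppargc1a lowest (0.102 and 0.152).

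In direction, the set was divided. Polrmt, Tfam, Polg, Lonp1 and Nrf1 had more RPM in IV 5% O2, and Tfb2m, Tefm, Polg2, Ssbp1 and Ppargc1a had more in IV 20% O2. Of the 10 genes, 9 passed the level filter and Ppargc1a did not. By the difference, none of the 9 was at least 2-fold higher in IV 5% O2, where 18.7% of all genes tested were, and 1 of the 9, Tfb2m, was at least 2-fold lower, where 9.22% of all genes tested were. The counts of the 9 by plain RPM ratio are also 0 and 1, beside 23.0% and 11.3% of all genes tested. The median difference of the 9 was 0.04 against 0.26 for all genes tested, and 3 of them (Lonp1, Nrf1 and Polg) lay above that median gene. The counting interval of the ratio included 1 for 2 of the 9, Polrmt and Polg2, against 11.1% of all genes tested. After median-ratio scaling and after quantile normalization, 3 of the 10 instead of 5 were higher in IV 5% O2, since Polrmt and Tfam changed sign. The share of all genes tested that were higher was 62.6% as deposited, 48.1% after the first scaling and 52.5% after the second. Lonp1, Nrf1 and Polg were higher and the other five lower under every alternative in which they were computed.

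**Figure D2:**
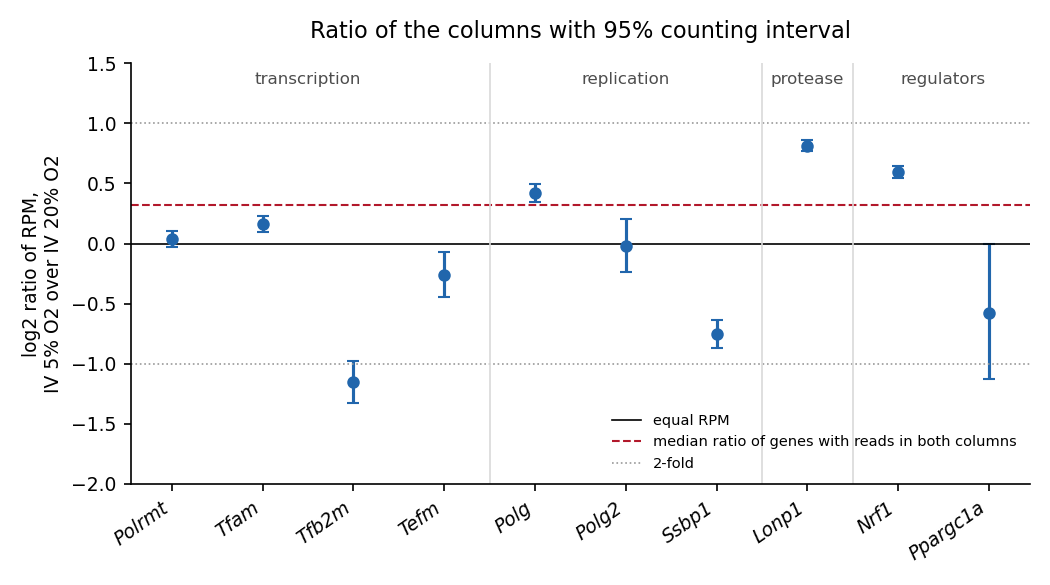
Log2 ratio of RPM, IV 5% O2 over IV 20% O2, for the 10 genes grouped by role, with 95% counting intervals (black line, equal RPM; red dashed line, median ratio of all genes with reads in both columns, 0.32; dotted lines, 2-fold). Lonp1, Nrf1 and Polg lay above the red line. Polrmt and Tfam lay between the lines, so that their direction flips under quantile normalization and under median-ratio scaling, and the other five lay below both.

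Among the transcription genes, the polymerase and its packaging factor were nearly level between the columns as deposited, whereas the promoter-opening factor was not. Polrmt (chromosome 10 of GRCm38, 79736123 to 79746581, minus strand) had 59.2 RPM (7820 reads) at 5% O2 and 57.7 RPM (2357 reads) at 20% O2. Its ratio was 1.03-fold (0.980 to 1.07), and 3.27% of genes tested had a difference as near to 0 as its 0.04. Against the median gene, however, Polrmt stood at -0.22, and it was at -0.28 with median-ratio scaling and -0.16 with the quantile one. Tfam (chromosome 10, 71225464 to 71238280, minus strand) had 63.8 and 56.9 RPM, a ratio of 1.12-fold (1.07 to 1.18). The difference of Tfam was 0.16 (-0.09 when the median gene is subtracted), and its sign turned under both other scalings (median-ratio, -0.15; quantile, -0.031). Tefm (chromosome 11, 80136678 to 80142175, minus strand) had 6.82 RPM (902 reads) and 8.17 RPM (334 reads), a ratio of 0.835-fold (0.736 to 0.950). Tfb2m (chromosome 1, 179528055 to 179546267, minus strand) had 5.14 RPM (680 reads) at 5% O2 and 11.4 RPM (468 reads) at 20% O2. The ratio was 0.449-fold (0.399 to 0.507), or 2.23-fold higher in IV 20% O2, with a difference of -1.02. With a pseudocount of 5 RPM this difference was -0.70 and no longer 2-fold. Per kb of exon, the RNA of Tfb2m stood at 0.145 of that of Polrmt in IV 5% O2 and at 0.332 in IV 20% O2, and Tefm at 0.344 and 0.423 of Polrmt. Tfam was at 1.14 and 1.04 of Polrmt. The 4 genes summed to 135 RPM at 5% O2 and 134 RPM at 20% O2, sums that Polrmt and Tfam make up for the most part and that do not show the lower value of Tfb2m.

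Tfb2m was also the only gene of the 10 with extensive repeated exon sequence. Of its 100-base exonic windows, taken every 10 bases, 55.7% occur again in the genome, as do 71.6% of its 50-base windows. All 103 of the repeated 100-base windows match chromosome 12 from 48554179 to 48559975, annotated as the unprocessed pseudogene Gm1818, which has no row in the table. For the other 9 genes the share was at most 0.639% (Ssbp1, where 5 windows match the processed pseudogene Gm12115 on chromosome 11, 33173325 to 33173464). Over all genes tested, such sequence went with lower values in IV 5% O2. The 371 genes with at least 50% of windows repeated had a median difference of -1.63 and 63.3% of them were at least 2-fold lower, against a median of 0.29 and 7.14% for the 13607 genes under 10%. The difference of Tfb2m lay within the middle of those 371 genes (quartiles -2.68 and -0.40). The part of repeated sequence in its value was not tested. Without Tfb2m, none of the 8 tested genes left was 2-fold apart as deposited, and their median difference was 0.10. Of all genes tested with at most 10% of windows repeated, 19.3% were at least 2-fold higher and 7.15% at least 2-fold lower. After median-ratio scaling Ssbp1, at -1.01, was past 2-fold lower.

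**Figure D3:**
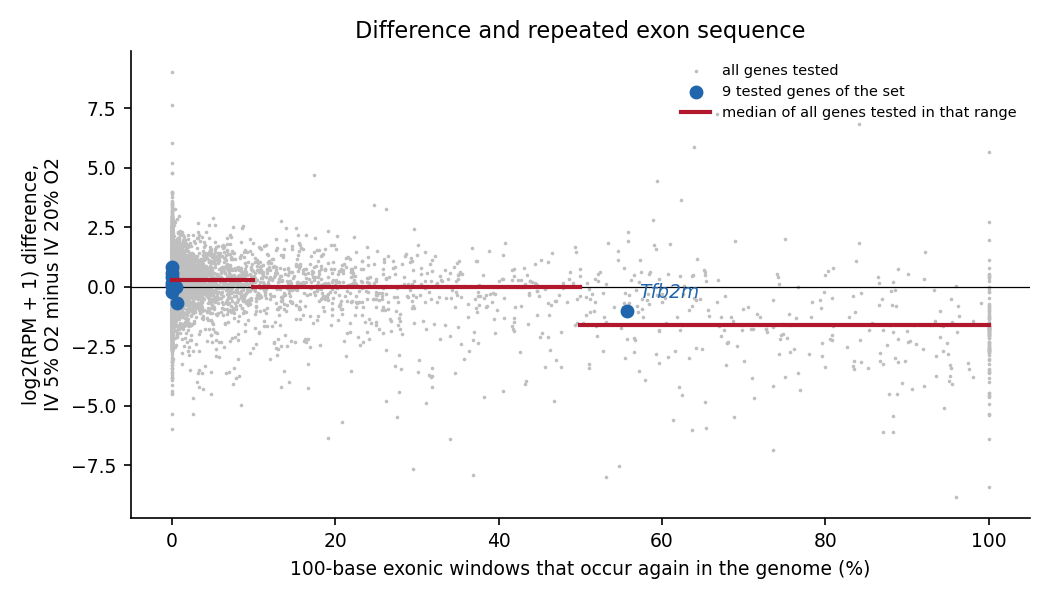
Log2(RPM + 1) difference of every gene tested (grey) against the percentage of its 100-base exonic windows that occur again in the genome, with the 9 tested genes of the set in blue and the median of all genes in 3 ranges in red. Tfb2m, at 55.7% and -1.02, stands where the median of all genes was -1.63, and the other 8 stand at the left edge.

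The replication genes went in different directions. Polg (chromosome 7, 79446231 to 79466362, minus strand) had 58.2 RPM (7694 reads) at 5% O2 and 43.4 RPM (1776 reads) at 20% O2, a ratio of 1.34-fold (1.27 to 1.41). The difference of 0.41 was 0.16 relative to the median gene and 0.10 after median-ratio scaling. Polg2 (chromosome 11, 106768253 to 106779537, minus strand) had 5.27 RPM (696 reads) and 5.33 RPM (218 reads), a ratio of 0.987-fold (0.847 to 1.15). Per kb of exon, the catalytic subunit was thus 4.48 times the accessory subunit in IV 5% O2 and 3.30 times in IV 20% O2, and these ratios were 2.12 and 1.57 with the principal transcripts. Ssbp1 (chromosome 6, 40471352 to 40484700, plus strand) had 13.3 RPM (1760 reads) at 5% O2 and 22.4 RPM (917 reads) at 20% O2. The ratio was 0.594-fold (0.548 to 0.644), or 1.68-fold higher in IV 20% O2, a difference of -0.71, and 13.8% of genes tested had a lower value. After median-ratio scaling it reached -1.01, which made it the second gene of the set past 2-fold lower. Ssbp1 and Polg both hold an ETS core close to the start, as shown above, and had opposite directions.

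Lonp1 had the highest difference of the 10. Located on chromosome 17 from 56614297 to 56626887 on the minus strand, it had 184 RPM (24270 reads) at 5% O2 and 104 RPM (4269 reads) at 20% O2, a ratio of 1.76-fold (1.70 to 1.82). The difference of 0.81 was 0.55 relative to the median gene, 0.49 after median-ratio scaling and 0.61 after quantile normalization, and 74.7% of genes tested had a lower value. Per kb of exon, Lonp1 was 2.92 times Tfam in IV 5% O2 and 1.86 times in IV 20% O2. In the list of other quality-control proteases and their scaffolds, 9 of 11 genes were higher in IV 5% O2, where 62.6% of all genes tested were. Lonp2, one of the 9 with a difference of 0.02, encodes a peroxisomal protease, and 8 of 10 were higher without it. Of the 11, 1 was at least 2-fold higher and none 2-fold lower, beside 18.7% and 9.22% of all genes tested, and the median was 0.35. The highest of that list was Phb2, a prohibitin of the inner membrane, with 172 and 78.1 RPM (difference 1.13), and the lowest was Clpp, the peptidase of the ClpXP complex, with 10.7 and 14.2 RPM (difference -0.38).

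Of the nuclear regulators, Nrf1 was well expressed and Ppargc1a was low in both columns. Nrf1 (chromosome 6, 30047988 to 30153458, plus strand) had 146 RPM (19348 reads) at 5% O2 and 96.9 RPM (3961 reads) at 20% O2, a ratio of 1.51-fold (1.46 to 1.56). The difference was 0.59, or 0.33 relative to the median gene. Ppargc1a (chromosome 5, 51454250 to 51567726, minus strand) had 89 reads in IV 5% O2 and 41 in IV 20% O2, or 0.673 and 1.00 RPM. The ratio was 0.671-fold, with an interval from 0.459 to 0.997 that nearly reached 1, so the direction is weakly determined at this depth. Among 16 other regulators of mitochondrial biogenesis in the table (17 on the list), 2 were at least 2-fold higher in IV 5% O2 and none lower, beside 18.7% and 9.22% of all genes tested. The median of these 16 was -0.16, and 9 of the 16 were lower, beside 37.4% of all genes tested. Ppargc1b, the related coactivator, had the highest difference of that list (2.42), with 15.1 RPM (1990 reads) at 5% O2 and 2.01 RPM (82 reads) at 20% O2. Yy1, a zinc-finger transcription factor, had the lowest (-0.53), with 30.9 and 45.1 RPM.

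Among the other nuclear genes of the pathway few were far apart. Over the 6 nuclear lists, 86 genes were tested, of which 8 were at least 2-fold higher and 2 at least 2-fold lower, beside 18.7% and 9.22% of all genes tested, and their median difference was 0.21. By plain RPM ratio, 10 were higher (Nthl1 and Spg7 in addition) and 3 lower (Mrpl12 in addition), beside 23.0% and 11.3%. In the replisome and mtDNA repair list (15 genes), 11 were higher and 4 lower, beside 62.6% of all genes tested higher, with a median of 0.29. Its extremes were Rnaseh1, the RNase that removes RNA from RNA:DNA hybrids, with 59.0 and 28.3 RPM (1.04), and Mgme1, a mitochondrial genome maintenance exonuclease, with 8.78 and 14.7 RPM (-0.68). In the mitochondrial RNA processing and stability list (20 genes), 14 were higher, near the same background share, with a median of 0.34. Rexo2, an oligoribonuclease, had 36.7 and 11.2 RPM (1.63), and Fastk had 22.5 and 30.8 RPM (-0.44). The deoxynucleotide supply list (14 genes) was evenly divided, with a median of 0.05 that was below 0 under both other scalings. Its extremes were Mpv17, an inner membrane protein whose loss depletes mtDNA, with 3.37 and 0.930 RPM (1.18), and Slc25a36, a pyrimidine nucleotide carrier, with 16.2 and 35.9 RPM (-1.10). In the nucleoid and transcription factor list (10 genes), the median was -0.03. Gtpbp10, a GTPase of the mitochondrial ribosome, had 21.1 and 12.7 RPM (0.69). Mterf1b, a termination factor gene, had 0.0378 RPM (5 reads) at 5% O2 and 2.59 RPM (106 reads) at 20% O2 (-1.79), with 41.8% of its windows repeated. After median-ratio scaling the replisome median became -0.03, and the medians of the RNA processing and protease lists, at 0.02 and 0.03, were near 0.

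**Figure D4:**
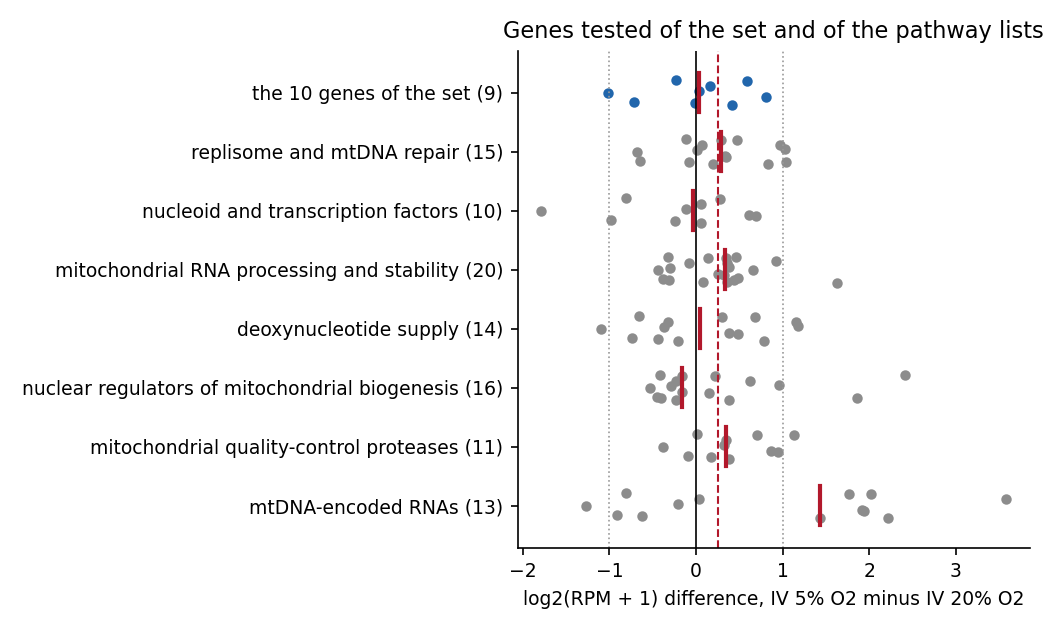
Log2(RPM + 1) difference of each gene tested in the set (blue) and in 7 pathway lists (grey), with the median of each list in red, the median of all genes tested as a red dashed line (0.26) and 2-fold as dotted lines. The mtDNA-encoded RNAs were spread most widely, from -1.28 to 3.59.

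Reads on the mtDNA genes themselves had a higher median difference, and a wider range, than the set or any nuclear list. Whether all of these reads came from RNA was not tested. All 13 mRNA genes of mtDNA are in the table, whereas the rRNA genes mt-Rnr1 and mt-Rnr2 have no row. Together they had 1242 RPM at 5% O2 and 906 RPM at 20% O2 (1.37-fold), which is 0.124% and 0.0906% of all reads. These shares are low for total RNA, in which such transcripts are usually among the most abundant, and how reads on mtDNA were treated is not given in the sources used here. Of the 13, 7 were at least 2-fold higher in IV 5% O2 and 1 at least 2-fold lower, where 18.7% and 9.22% of all genes tested were, and their median difference was 1.43 (1.12 after median-ratio scaling and 1.25 after quantile normalization). By plain RPM ratio 2 were at least 2-fold lower, beside 11.3% of all genes tested. The added gene, mt-Nd4l, had a ratio of 0.309-fold (0.217 to 0.441), the lowest of the 13. Its values were 0.507 and 1.64 RPM (67 reads in each column), and each of its 100-base windows also occurs in a nuclear chromosome. The groups of genes along the molecule differed. The 5 genes with under 5% of their 100-base windows also in a nuclear chromosome (mt-Nd1, mt-Nd2, mt-Nd5, mt-Nd6 and mt-Cytb) were all at least 2-fold higher (background again 18.7%), from 1.43 to 3.59, and their sum was 664 RPM at 5% O2 and 159 RPM at 20% O2, a ratio of 4.19-fold. The 8 others had a sum of 578 and 747 RPM (0.773-fold), and 5 of them were lower in IV 5% O2, where 37.4% of all genes tested were.

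The highest difference was that of mt-Nd6 (3.59), the only mRNA gene coded on the light strand, with 66.8 RPM (8832 reads) at 5% O2 and 4.65 RPM (190 reads) at 20% O2. The libraries were strand-specific, but whether reads were also counted by strand is not stated, and if they were not, RNA from the opposite strand is included in mt-Nd6. For mt-Nd5 the values were 227 and 48.0 RPM (2.21), and for mt-Cytb, a subunit of complex III, 155 and 40.3 RPM (1.91). All 3 cytochrome c oxidase genes were lower in IV 5% O2 (background 37.4%). The lowest difference was that of mt-Co2 (-1.28), with 30.0 and 74.1 RPM, followed by mt-Co3 (-0.92) with 79.6 and 151 RPM, and mt-Co1 had 262 and 406 RPM (-0.63). Each 100-base window of mt-Co2 and mt-Co3, and 31.0% of those of mt-Co1, also occurs in the nuclear genome. The gene mt-Atp8, with each window also nuclear, was nevertheless higher (1.95), at 12.1 and 2.40 RPM, and mt-Nd3 was level (0.03, below 0 with median-ratio scaling). The copies lie on chromosome 1 from 24611541 to 24616180 and on chromosome 2 from 22587563 to 22590191, in annotated pseudogenes that have no row in the table. Those on chromosome 2 lie within the span of Myo3a, a protein-coding gene with a row at 1.67 and 0.758 RPM. The part of these copies in the values was not tested.

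**Figure D5:**
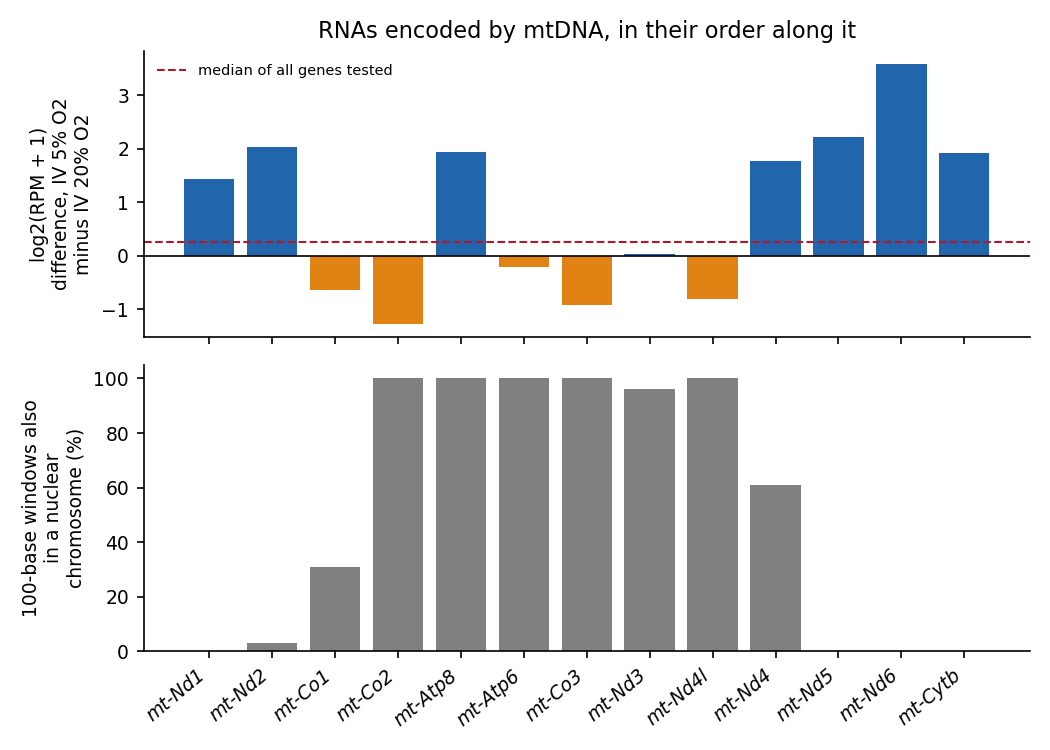
Top, log2(RPM + 1) difference of the 13 mRNA genes of mtDNA in their order along the molecule (blue, higher in IV 5% O2; orange, lower; red dashed line, median of all genes tested). Bottom, percentage of their 100-base windows that also occur in a nuclear chromosome. The 5 genes with under 5% ran from 1.43 to 3.59, and the 3 cytochrome c oxidase genes were below 0. The direction of mt-Nd3 (0.03) flips with median-ratio scaling.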

How the data were processed

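RNA-seq of class IV oocytes was analysed, with 2 libraries in each of 2 conditions; the methylation libraries were not used here. The authors aligned reads to mm10 with TopHat (TopHat2 2.0.9 in the submitters' processing notes), quantitated them over exons in SeqMonk, and deposited for each gene a single log2 value per condition. The sources describe a length correction, but 99.93% and 99.98% of the linear values were whole reads (within 0.05) without one, so the log2 values were read as log2 RPM, and values listed at 0.9 of 1 read were set to 0. How the authors pooled libraries is not stated. Another 1 value column, which belongs to no mapped sample, was not used here.

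The planned comparison was made on log2(RPM + 1), leaving out genes whose mean was under 1 RPM and using the highest row of a repeated name. The 10 genes and all lists were chosen with earlier results of these data known. Besides the 10 genes, the genes with the highest and the lowest difference of each list are named, and mtDNA-encoded RNAs by their range. A list gene named outside this rule was chosen after its values were seen. Depth limits precision most in IV 20% O2, where 0 reads allows up to 3 reads, or 0.0734 RPM, against 0.0227 RPM in IV 5% O2. Exon lengths came from GENCODE M21, repeated windows from 22 chromosome sequences of GRCm38, and promoters from RefSeq. On simulated reads for the same 2 columns (14704 genes), 95.5% of the intervals held the true ratio and 100% of 200 genes set 4-fold apart were recovered. These reads were drawn with counting error only, which the intervals assume, so the simulation cannot check the spread between libraries. The 200 genes were taken from those with a mean of at least 5 RPM, so recovery below that level was not simulated. Alternatives were pseudocounts of 0.1 and 5 RPM, quantile normalization, scaling by the median ratio, no filter or one at 5 RPM, summed rows, totals without mtDNA and the longest transcript. Added after seeing the data were 2-fold counts by plain RPM ratio, a limit of 10% repeated windows and principal transcripts (Tfam has none annotated at the first level and was left out there). Scripts ran in Python 3.11.15 with scipy 1.17.1, numpy 2.4.6, matplotlib 3.10.9, pandas 2.3.3 and numba 0.67.0.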

Additional observations from a re-analysis of the deposited data

How the results depend on the processing

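No paired analysis was possible because each condition is deposited as 1 pooled column without replicate numbers; leaving out a replicate, a replicate block and limma were not run for the same reason. The count of genes of the set higher in IV 5% O2 was 5, and 3 after median-ratio scaling and after quantile normalization, while the share of all genes tested moved from 62.6% to 48.1% and 52.5%. The set's median difference of 0.04 became -0.28 and -0.16 under these scalings, Tfam reversed to -0.15 and -0.031, and the replisome list's median reversed to -0.030 after median-ratio scaling. The count at least 2-fold lower, 1 (beside 9.22% of all genes tested), was 2 after median-ratio scaling (beside 13.9%). It was 0 with a pseudocount of 5 RPM (4.80%) and 0 at a limit of 10% repeated windows (7.15%). Of the 99 genes tested in the 7 pathway lists, 3 were at least 2-fold lower, beside 9.22% of all genes tested. The count was 5 with a pseudocount of 0.1 RPM (beside 11.1%) and 1 with 5 RPM (4.80%). It was 7 after median-ratio scaling (13.9%) and 7 after quantile normalization (12.7%). Under the repeat limit it was 1 of 85 (7.15%), and by plain RPM ratio 5 (11.3%). At least 2-fold higher were 15 of the 99 (beside 18.7%). This count was 16 and 11 with these pseudocounts (22.6% and 8.17%), and 10 after each scaling (11.6% and 11.9959%). Under the repeat limit it was 13 (19.3%), and by plain RPM ratio 17 (23.0%). The median level per kb of the set, 4.88 in IV 5% O2 and 4.64 in IV 20% O2, was 6.32 and 5.89 with the longest transcript, and 5.21 and 5.54 with principal transcripts (9 genes, without Tfam), where the order of the columns turned. Over all genes, 2753 higher and 1356 lower became 1202 and 706 with a pseudocount of 5 RPM, 1700 and 2031 after median-ratio scaling, and 1764 and 1866 after quantile normalization. The cause was not tested. Of 151 values of single genes and list medians under alternatives, 115 moved by no more than counting error and 36 by more. In 11 of the 151 the sign changed: Tfam, Polrmt and the deoxynucleotide median under both scalings, the replisome median under median-ratio scaling, and the deoxynucleotide and nucleoid medians at a mean of 5 RPM and at the repeat limit. Only the Tfam and replisome values had been further from 0 than counting error.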

Other observations

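Genes related to the set by sequence or by position gave further values. They were chosen after the values were seen. Tfb1m, the paralog of Tfb2m that methylates mitochondrial rRNA, had 33.6 RPM at 5% O2 and 32.1 RPM at 20% O2, a difference of 0.06, and 2.54% of its 100-base windows are repeated. The subunits of GABP, a factor that binds ETS sites, were Gabpa with 15.2 and 18.1 RPM (-0.23), Gabpb1 with 90.0 and 68.8 RPM (0.38) and Gabpb2 with 54.5 and 46.8 RPM (0.21). The directions of Gabpb2 and Tfb1m lie below the median gene and so turn with median-ratio scaling.

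Exons of Polg overlap Fanci, on the opposite strand, over 921 bases, or 8.57% of its exon length, and exons of Polg2 overlap Milr1 over 132 bases (3.03%). Fanci had 67.7 and 55.6 RPM, and Milr1 had 0.817 and 0.294 RPM. The libraries were strand-specific; if the counting did not use strand, which is not stated, reads of the shared bases were counted for both genes. None of the other 8 genes shares exon bases with another annotated gene.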
